A study of Mus musculus with 6 samples.

Results

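Eomes, a T-box transcription factor needed for natural killer (NK) cell maturation, left 19297 promoter regions that were called in exactly 1 of 3 chromatin immunoprecipitation (ChIP-seq) experiments. These were 22.9% of the 84399 regions found in all. They were chosen by merging intervals of the 3 peak lists that share at least 1 bp, keeping regions with intervals from 1 list, and taking those whose interval with the largest pileup was annotated as a promoter. The pileup is read here as the number of fragments at the summit. Experiment 1 gave 5320 of them, experiment 2 gave 5153 and experiment 3 gave 8824, which were 36.4%, 34.4% and 43.9% of all promoter regions of those lists. The comparison sets were 11895 promoter regions of 2 or 3 experiments, called shared here, and 44976 non-promoter regions of 1 experiment.

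All 6 libraries, 3 of IP and 3 of input, came from wild-type C57BL/6 mice aged 8 to 12 weeks. In each of 3 separate experiments, NK cells were purified from pooled splenocytes and cultured for 4 days with 100 ng/mL IL-15, a survival and growth cytokine of NK cells. Chromatin was precipitated with an anti-Eomes antibody, and input DNA was not precipitated. Every group was wild type, cultured and pooled over animals, and no sample lacking Eomes was analysed here. Peak lists hold no expression values, so the cell type could not be checked by its markers.

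A promoter is the stretch around a transcription start where the polymerase is loaded, and many mammalian promoters are rich in GC and in CpG dinucleotides. T-box factors bind DNA through a core read as GGTGTG on either strand. Eomes acts in NK cells beside the related factor T-bet, and both are known for control of cytotoxic and cytokine genes. The lists were deposited to show where Eomes sits in these cells. The question for the promoter regions of 1 experiment is whether their genes also carry shared regions or are other genes.

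Upstream sequences under 6 of these regions are given first, 1 for each experiment and each kind of gene, because they show how much the promoters of both kinds differ among themselves. In each pair the gene named first also has a shared promoter region, and the gene named next has no region in another list. All have at least 60 bases upstream of the start in the RefSeq promoter table (GRCm38.p6, the assembly behind mm10). The letters were read from that table. They are examples and not the top regions, since regions of the same kind and experiment with a higher score were passed over. By score among such regions, Jpt1 ranked 54, Zbtb33 4, Efhd2 6, Foxa3 20, Arrdc4 3 and Ifi35 9. They are upstream bases only, from the strand of the gene, 5′ to 3′, and capitals mark CpG dinucleotides. Jpt1 is at chr11:115514432-115514631 (minus strand) and Zbtb33 at chrX:38189614-38189792 (plus strand), both from experiment 1. Efhd2 is at chr4:141874921-141875170 (minus strand) and Foxa3 at chr7:19023540-19023686 (minus strand), both from experiment 2. Arrdc4 is at chr7:68749239-68749488 (minus strand) and Ifi35 at chr11:101448300-101448411 (plus strand), both from experiment 3.
Jpt1: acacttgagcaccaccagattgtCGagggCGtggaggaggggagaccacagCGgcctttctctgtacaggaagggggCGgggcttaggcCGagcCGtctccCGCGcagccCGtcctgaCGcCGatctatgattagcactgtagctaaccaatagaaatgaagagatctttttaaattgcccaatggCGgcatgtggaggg
Zbtb33: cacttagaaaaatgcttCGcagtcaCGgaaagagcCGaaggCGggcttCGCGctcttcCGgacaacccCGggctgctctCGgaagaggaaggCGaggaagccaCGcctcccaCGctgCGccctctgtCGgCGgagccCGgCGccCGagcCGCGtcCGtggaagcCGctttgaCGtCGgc
Efhd2: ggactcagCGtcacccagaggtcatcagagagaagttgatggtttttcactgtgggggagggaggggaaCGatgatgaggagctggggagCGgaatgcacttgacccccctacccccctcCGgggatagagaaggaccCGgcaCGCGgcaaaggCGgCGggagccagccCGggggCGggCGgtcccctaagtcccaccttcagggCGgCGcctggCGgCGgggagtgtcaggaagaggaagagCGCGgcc
Foxa3: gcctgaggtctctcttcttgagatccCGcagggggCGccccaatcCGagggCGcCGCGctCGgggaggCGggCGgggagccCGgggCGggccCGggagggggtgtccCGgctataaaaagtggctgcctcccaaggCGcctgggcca
Arrdc4: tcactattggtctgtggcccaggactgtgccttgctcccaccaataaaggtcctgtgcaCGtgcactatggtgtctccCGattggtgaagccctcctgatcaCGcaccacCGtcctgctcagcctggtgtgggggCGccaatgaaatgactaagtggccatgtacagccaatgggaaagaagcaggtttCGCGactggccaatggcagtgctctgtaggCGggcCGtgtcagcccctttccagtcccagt
Ifi35: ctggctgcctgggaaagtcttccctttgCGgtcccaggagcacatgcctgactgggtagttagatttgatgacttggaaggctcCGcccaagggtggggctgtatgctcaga
The printed stretches held between 2 CpG dinucleotides in 112 bases at Ifi35, an interferon-induced gene, and 24 in 179 bases at Zbtb33, which encodes the methyl-CpG-binding factor Kaiso. Foxa3, a forkhead factor of liver and endoderm, had 14 in 147 bases, and Efhd2, a calcium-binding protein gene, had 18 in 250 bases. Jpt1 had 12 in 200 bases. Arrdc4, which encodes an arrestin-domain protein, had 9 in 250 bases and was the only one of the 6 stretches with the T-box core letters.

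The genes of these regions were partly those of shared regions. Of the 19297 regions, 9193 (47.6%, 95% Wilson interval 46.9 to 48.3) were assigned to a gene that also has a shared promoter region at another place. A further 2007 (10.4%) were assigned to a gene whose shared regions all lay outside promoters. Another 4974 (25.8%) had a gene with a region in another list but none shared, and 3123 (16.2%) had a gene with no region in another list. The background is 37.2% of 21896 protein-coding genes with a shared promoter region and 43.6% with any shared region. That background counts each protein-coding gene once, whereas the shares of regions count all kinds of gene and a gene with several regions repeatedly. Counted by protein-coding gene, the share with a shared promoter region was 49.3%. These intervals, and all others given, cover counting error only.

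The 3 experiments gave close shares. The gene also had a shared promoter region for 47.1%, 47.3% and 48.2% of the regions of experiments 1, 2 and 3, a mean of 47.5% ± 0.60 (SD, n = 3). Among non-promoter regions of 1 experiment it did for 36.2%, 37.2% and 41.3%, a mean of 38.2% ± 2.69 (SD, n = 3). The difference was 9.28 ± 2.10 percentage points (SD, n = 3), with the promoter regions higher in 3 of 3 lists (exact sign-flip permutation test, two-sided, p = 0.25, the smallest that 3 pairs allow). That difference went down to 1.10 ± 2.77 points where only protein-coding genes were counted, with means of 54.1% and 53.0%. The promoter regions of experiment 3 were then the lower ones, 54.1% against 56.2%. The difference was 2.39 ± 3.27 points when intervals up to 500 bp apart were merged. It was 5.59 with promoters limited to 1 kb, 5.75 without experiment 1 and 5.87 without experiment 2. The shared regions were pooled over the lists and came from the same merging as the rule. The values of the 3 lists are therefore not independent of each other, and no conclusion is drawn from the p-value.

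Counting a shared region of any kind, the promoter regions did not stand above the non-promoter ones. The gene had one for 57.2%, 57.4% and 58.9% of the promoter regions, against 56.7%, 58.1% and 62.7% of the non-promoter regions of 1 experiment. The difference was -1.33 ± 2.23 points (SD, n = 3), higher in 1 of 3 lists (exact sign-flip permutation test, two-sided, p = 0.5). With protein-coding genes only it was -6.56 points, and with intervals up to 500 bp apart merged it was -6.07 points. With promoters limited to 1 kb it was -3.22 points, with sharing only at 50% of the shorter interval it was -0.60, and without experiment 1 or 2 it was -3.51 or -3.78. Genes with no region in another list took 15.3%, 14.6% and 17.7% of the promoter regions, against 12.3%, 10.3% and 11.3% of the non-promoter regions. The promoter regions were higher in 3 of 3 lists by this measure, by 4.56 ± 1.65 points (SD, n = 3, exact sign-flip permutation test, p = 0.25). Since the pooled regions come from the same merging as the rule, no conclusion is drawn from either p-value here.

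**Figure D1:**
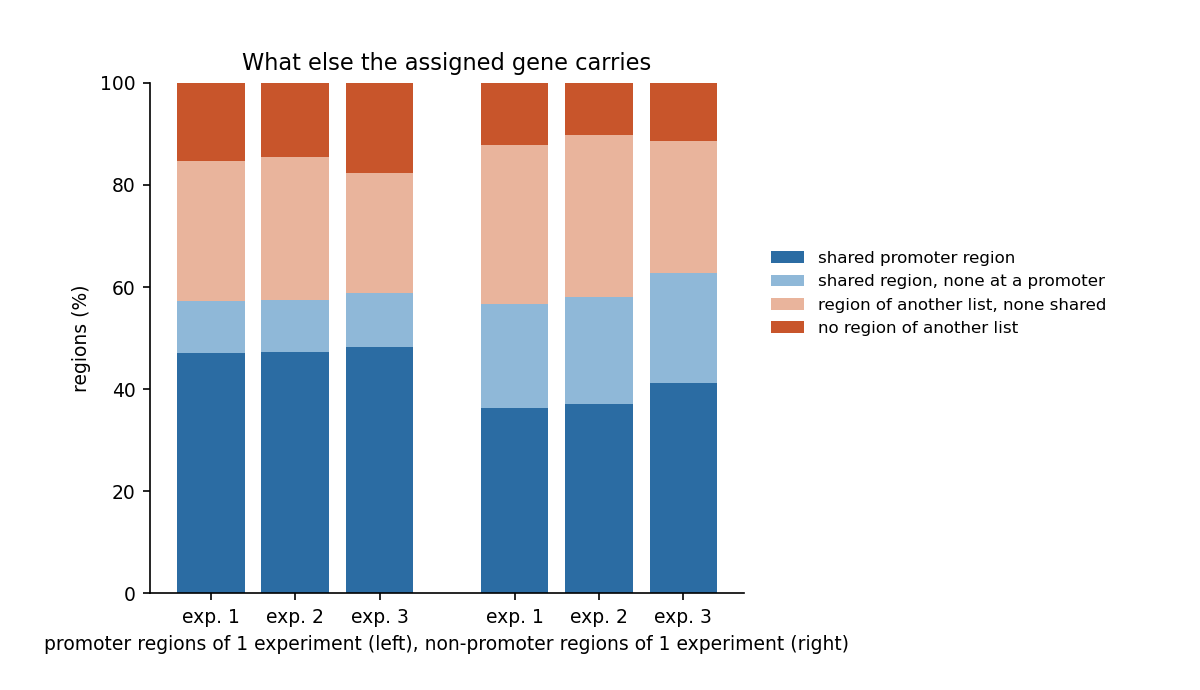
Share of regions (%) of each experiment by what else the assigned gene carries, for promoter regions of 1 experiment (left bars) and non-promoter regions of 1 experiment (right bars). The dark blue part, a shared promoter region, spans 47.1% to 48.2% on the left and 36.2% to 41.3% on the right.

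Counted by gene, 8870 protein-coding genes had a promoter region of 1 experiment, 40.5% of all 21896. Of these, 4376 (49.3%) also had a shared promoter region, 789 (8.90%) had a shared region elsewhere only, and 3705 (41.8%) had none. The 3705 genes are 16.9% of all protein-coding genes. Of the other 13026 protein-coding genes, 28.9% had a shared promoter region, but many of those have no region at all: 29.4% of all protein-coding genes have none and 70.6% have one. Limited to the 6578 others with any region, 57.3% had a shared promoter region. The order of the shares thus turned with the genes they were set against.

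The share of genes with a shared promoter region was higher among genes with such regions in more experiments. A single experiment gave the regions of 6005 genes, of which 46.4% had one (95% Wilson interval 45.1 to 47.6). For 2266 genes with regions in 2 experiments the share was 52.4% (50.3 to 54.4), and for 599 genes with regions in all 3 it was 67.6% (63.8 to 71.2). No test was run, since the lists and the regions come from the same data.

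The lists often named the same gene through different regions. Experiments 1 and 2 both had such a region at 1080 genes, which is 30.8% of the 3510 genes of experiment 1 and 31.0% of the 3484 of experiment 2. Experiments 1 and 3 had 1471 genes in common, 41.9% of the genes of experiment 1 and 27.5% of the 5340 of experiment 3. Experiments 2 and 3 had 1512 in common, 43.4% and 28.3% of their genes. A list covered between 15.9% and 24.4% of all protein-coding genes this way. Among genes with no shared region, 350 were common to experiments 1 and 2, which is 26.0% and 25.5% of such genes in those lists. Experiments 1 and 3 had 427 in common (31.7% and 20.2%), and experiments 2 and 3 had 490 (35.8% and 23.2%). Such genes of a list are 6.15% to 9.66% of all protein-coding genes. That base is too wide for these overlaps, since 43.6% of all protein-coding genes have a shared region and 29.4% have no region. Neither kind can be among the genes with no shared region. Whether the lists met at the same genes more often than their sizes give was not tested.

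Most genes had 1 or 2 of these regions. A single one lay at 5041 genes (56.8%), and 374 genes (4.22%) had 5 or more. Septin9, a cytoskeletal septin gene, had 17, and no gene had more. At Septin9 there were 5, 4 and 8 in experiments 1, 2 and 3, beside 9 shared promoter regions. Cdh23, a cadherin gene, had 13, and Plekhg5, Rgs3, Sema4d and Unkl had 12 each. Every one of the 10 genes with the most had at least 1 shared promoter region.

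The promoter regions lay close to peaks of the other experiments without touching them. The median distance to the nearest peak of another list was 2003.5, 1612 and 1800.5 bp for experiments 1, 2 and 3, against 8361, 7320 and 6933 bp for non-promoter regions of 1 experiment. Within 500 bp of another list's peak lay 27.4% ± 2.08 of the promoter regions and 7.89% ± 0.80 of the non-promoter regions (SD, n = 3 each). Within 3000 bp the shares were 59.98% ± 2.18 and 28.7% ± 1.81. The rule sets the lower end of these distances, so they are a description with no test.

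Shared regions were also nearer. Within 1000 bp of a shared region lay 22.7% ± 3.20 of the promoter regions and 5.07% ± 1.52 of the non-promoter regions (SD, n = 3 each). For the 9193 promoter regions whose own gene has a shared promoter region, the nearest such region lay a median of 1361 bp away, and 31.6% had it within 500 bp.

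**Figure D2:**
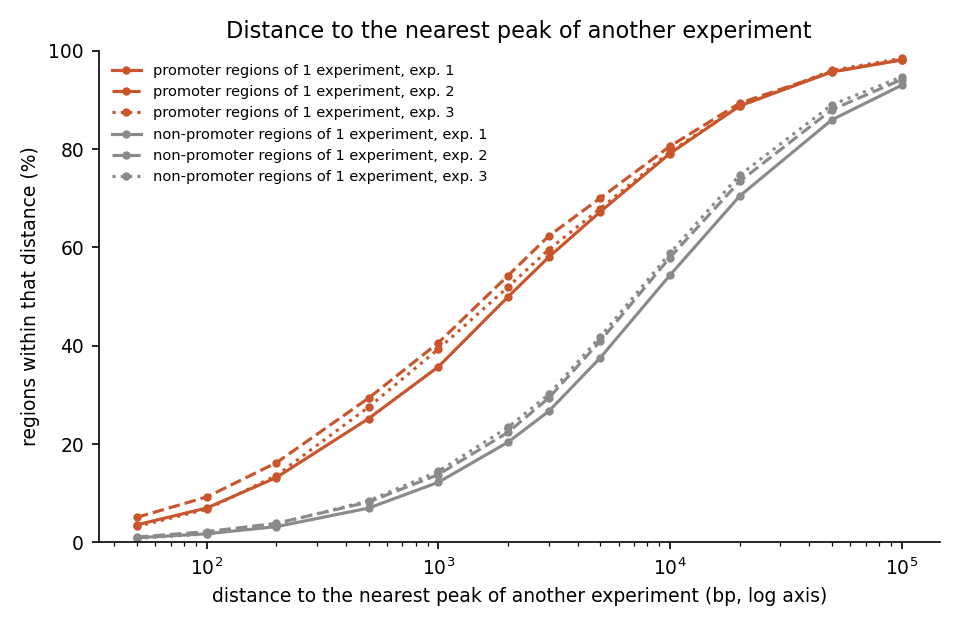
Share of regions (%) with a peak of another experiment within a given distance (bp, log axis), for promoter and non-promoter regions of 1 experiment, 1 line per experiment. At 1000 bp the promoter lines lie at 35.7%, 40.6% and 39.3%, above the non-promoter lines at 12.2%, 13.8% and 14.5%.

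At the limit of the merging rule, 741 of these regions ended 1 to 50 bp from a peak of another list. Distances run from nearest base to nearest base, so 1 bp means end to end. On the other side of it, 294 promoter regions of 2 lists shared only 1 to 50 bp. The median pileup of the 741 was 11, 10 and 13 fragments in experiments 1, 2 and 3, and of the 294 it was 12, 10 and 13. Median fold enrichment over background, a value of the authors' caller, was 3.80, 4.31 and 3.71 just outside the overlap and 3.91, 4.25 and 3.78 just inside it. Regions on either side of the limit thus had near-equal values.

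Regions of 1 experiment were weaker than shared ones, which is part of how they were chosen and is given without a test. Their median pileup was 11, 10 and 13 fragments in experiments 1, 2 and 3, against 15, 13 and 20 for shared promoter regions. Their median fold was 3.91, 4.31 and 3.86, against 4.56, 5.17 and 4.97. Within 2 fragments of the smallest pileup of the list lay 42.2%, 48.6% and 29.7% of them, against 9.95%, 15.2% and 5.58% of shared promoter regions. Median interval length was 181, 179 and 218 bp, against 480, 481 and 465 bp for the merged shared regions. Sequencing depth per library was not given in the sources used here, and the smallest pileup was 8, 7 and 9 fragments, so weaker binding was not detectable. The lowest background of a list, recovered from pileup and fold, was 1.82, 1.32 and 2.33 fragments.

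The share whose gene has a shared promoter region hardly moved with the authors' −log10 q-value. With the regions of a list split into 4 equal parts by that score, from lowest to highest, it was 45.4%, 46.5%, 48.9% and 47.5% in experiment 1. In experiment 2 it was 47.1%, 47.3%, 48.99% and 45.7%, and in experiment 3 it was 47.7%, 48.96%, 49.8% and 46.3%.

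Relative to the transcription start, the regions lay beside it more than over it. By annotation class, 12140 (62.9%) were within 1 kb, 4121 (21.4%) between 1 and 2 kb and 3036 (15.7%) between 2 and 3 kb. An annotated start lay under 11.1%, 14.6% and 19.9% of the regions of experiments 1, 2 and 3, against 59.0%, 60.6% and 58.1% of shared promoter regions. Shared regions are longer as merged, but place was read from the interval with the largest pileup alone. The widths of those intervals were not compared, so place may not be measured on equal widths. Downstream of the start within 1 kb lay 29.5%, 31.1% and 28.3% of the regions of 1 experiment, against 15.9%, 16.2% and 16.9% of the shared ones.

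The 3104 regions over a start less often had a gene with a shared promoter region, 33.9%, than the regions beside a start, 49.6% to 51.0%. The rule bears on this directly, since a shared region over the same start would have merged with them. In experiments 1, 2 and 3 the share was 34.7%, 35.0% and 33.2% over the start, against 50.7%, 49.1% and 50.8% downstream within 1 kb.

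**Figure D3:**
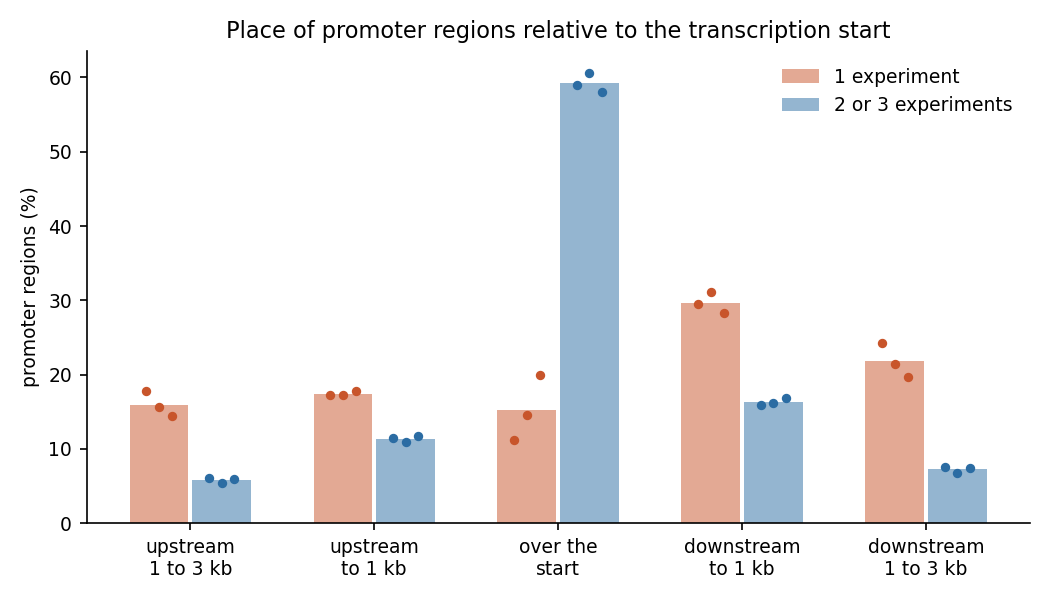
Share of promoter regions (%) by place relative to the transcription start, for regions of 1 experiment (left bar of each pair) and of 2 or 3 experiments (right bar); bars are means over experiments and points are the 3 experiments. Over the start, the regions of 1 experiment lie between 11.1% and 19.9%, and the shared regions between 58.1% and 60.6%.

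The highest-scoring regions of experiment 1 at genes that also have a shared promoter region were those of Abca1, Sfi1, Hivep1 and Gmip. At Abca1, the cholesterol exporter gene, the region (chr4:53160580-53160802, mm10) lay 685 bp upstream of a start with a pileup of 26 and a fold of 9.59. The nearest peak of another list was 351 bp away, and 1 of its 2 shared promoter regions, found in all 3 experiments, had folds of 3.04, 3.68 and 9.38 in experiments 1, 2 and 3. At Hivep1, a zinc finger factor gene, the fold was 7.81 and the nearest other peak was 82 bp away. Gmip also had a fold of 7.81, with another list's peak 114 bp away. At Sfi1, a centrosome gene, the pileup of 117 stood over a background of 44.8 fragments and gave a fold of 2.57.

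In the same experiment, the highest-scoring regions at genes with no region in another list were those of Nrde2, Prr13, Trim10 and Zbtb33. Nrde2, a gene of nuclear RNA surveillance, had a pileup of 22 and a fold of 6.65 over its start (chr12:100159526-100159742). Prr13 had a fold of 6.404 over its start, and Zbtb33 had 6.39 over its start. Trim10, a tripartite-motif gene, had 6.39 at 984 bp upstream, where a peak of another list that is not assigned to Trim10 lay 839 bp away. The nearest peak of another list was 24441 bp from the Nrde2 region, 11058 bp from that of Prr13 and 9309 bp from that of Zbtb33.

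In experiment 2 the leading regions had folds of 8.18 to 20.5 and lay 2427 to 183222 bp from the nearest peak of another list. At genes with a shared promoter region these were Rfx5, Kpna1, Gtf2h1 and Hk1. Rfx5, a factor of MHC class II genes, had a pileup of 34 and a fold of 15.1 (chr3:94957248-94957542), at 1777 bp downstream of a start and 2679 bp from the nearest other peak. Kpna1, an importin gene, had a fold of 13.4 with the nearest other peak 30324 bp away. Gtf2h1, a subunit gene of the general factor TFIIH, had 12.9 at 2427 bp from another list's peak. Hk1, the hexokinase gene, had 10.3 at 20011 bp. The shared promoter regions of Kpna1 and Hk1 thus belong to other annotated starts than the regions of experiment 2.

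At genes with no region in another list, experiment 2 was led by Rn7s6, Vstm4, Pnisr and Usp39. The Rn7s6 region (chr6:69516232-69516522) had a pileup of 52 and a fold of 20.5, the highest fold of all 19297 regions, and the nearest peak of another list lay 183222 bp away. Vstm4, a gene of an immunoglobulin-domain membrane protein, had a fold of 10.1 at 2380 bp upstream of a start. Pnisr, which encodes a protein related to splicing factors, had 10.8 at 879 bp downstream. Usp39, a splicing gene of the tri-snRNP, had 8.18 at 2903 bp downstream. Their nearest other peaks were 25601, 24328 and 16762 bp away.

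Short genes were frequent at the top of experiment 2, a feature singled out after the values were seen. Among its 50 highest-scoring regions, 12 were assigned to genes shorter than 350 bp, against 2 in experiment 1 and 4 in experiment 3. Of the 50, 26 intervals were 260 to 290 bp long, against 4 and 10 in experiments 1 and 3. The leading regions of experiment 2 named above, also those at protein-coding genes, were 263 to 295 bp long. Over all regions of a list, genes this short took 6.64% for experiment 2, against 6.58% and 5.69% for experiments 1 and 3. Intervals of 260 to 290 bp took 6.04% for experiment 2, against 5.49% and 8.85%. The 12 held Rn7s6, the Y RNA gene Rny3, the microRNA gene Mir6537 and 9 predicted genes, with folds of 7.32 to 20.5. Values at RNA genes and pseudogenes with near-identical copies are uncertain, since how reads that match several copies were handled is not known here; its part in these values was not tested.

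In experiment 3 the leading regions at genes with a shared promoter region were Mindy1, Usp19, Arrdc4 and Prkcb. Mindy1 and Usp19, both deubiquitinase genes, had pileups of 32 and 30 and folds of 9.12 and 8.95 over a start, at 127 and 166 bp from another list's peak. Arrdc4, whose upstream bases hold the T-box core letters, had a pileup of 30 and a fold of 8.55, and its shared promoter region had folds of 4.305 and 4.998 in experiments 1 and 2. Prkcb, a protein kinase C gene, had a fold of 8.28 at 1542 bp upstream of a start, 23786 bp from the nearest other peak.

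At genes with no region in another list, experiment 3 was led by Abcf3, Gtf2f1, Chkb and Dph5. Abcf3, an ABC-family ATPase gene, had a pileup of 30 and a fold of 7.90 over its start (chr16:20548354-20548916). Gtf2f1, a TFIIF subunit gene, had 7.80 at 27 bp upstream, Chkb, a choline kinase gene, had 7.09, and Dph5, of diphthamide synthesis, had 7.81. Their regions lay 10163 to 72058 bp from the nearest peak of another list.

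Regions were next read by gene groups of NK cell biology. Among 33 transcription factor genes of NK cells and innate lymphoid cells, 27 had a promoter region of 1 experiment (81.8%, against 40.5% of all protein-coding genes). The same number, 27, had a shared promoter region (81.8%, against 37.2%), and 21 had both. Regions of 1 experiment only were present at 6 (18.2%, near the 20.5% of all protein-coding genes). The 6 were Tox2, Tcf7, Foxo1, Stat5b, Bcl11b and Zbtb32. Of these, Zbtb32, which encodes a zinc finger repressor, was the one with no shared region anywhere: its region in experiment 1 had a pileup of 9 and a fold of 3.55.

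The values at some genes outside the naming rule were chosen after they were seen, because of what the genes do in NK cells. At Eomes itself, experiment 1 had a region with a fold of 3.04 and experiment 3 had one with a fold of 4.14, and their nearest bases lay 6 bp apart. Both lay upstream of the Eomes start, and Eomes also has a shared promoter region. At Foxo1, a factor of quiescence, experiment 3 gave a fold of 7.05 at 200 bp upstream, with another list's peak 478 bp away. Tcf7, a factor of early lymphoid precursors, had 2 regions in experiment 2 with folds of 4.02 and 3.45 and 2 in experiment 3 with folds of 4.33 and 3.603. The nearest peaks of the other list at Tcf7 were 113 and 898 bp away.

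Of 20 cytotoxic genes, 11 had a promoter region of 1 experiment, against 40.5% of all protein-coding genes, and 17 had a shared one, against 37.2%. Both kinds were present at 8, and 3 had regions of 1 experiment only, against 20.5% of all protein-coding genes. The 3 were Tnfsf10, which encodes the death ligand TRAIL, Srgn, the granule proteoglycan gene, and Stxbp2, a gene of granule release. Stxbp2 had no shared region, with 1 region in experiment 2 (fold 5.17) and 3 in experiment 3 (folds 2.72 to 3.90).

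Of 14 cytokine and chemokine genes, Ifng, Lta and Ccl5 had promoter regions of 1 experiment only (21.4%, near the 20.5% of all protein-coding genes), and 8 had a shared one (57.1%, against 37.2%). Each of these 3 had a shared region outside its promoter. Ifng, the interferon gamma gene, had its region in experiment 3 with a pileup of 14 and a fold of 2.82, 5313 bp from another list's peak. Ccl5, a chemokine gene, had folds of 4.12 and 2.87 in experiment 3, and Lta, the lymphotoxin gene, had 3.91 in experiment 1.

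Of 29 cytokine receptor and signalling genes, Il10ra and Jak3 had promoter regions of 1 experiment only (6.90%, against 20.5% of all protein-coding genes), and 23 had a shared one (79.3%, against 37.2%). Jak3, the kinase of common gamma chain receptors, had no shared region but had a region in each experiment. Its folds were 3.64, 3.45 and 4.13 in experiments 1, 2 and 3, with pileups of 10, 7 and 13. Il10ra, an IL-10 receptor chain gene, had a fold of 3.59 in experiment 3.

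Of 34 NK receptor and adaptor genes, 20 (58.8%) had no promoter region, against 42.3% of all protein-coding genes. A shared one was present at 11 (32.4%, against 37.2%), and Klrg1, Sh2d1a and Lag3 had regions of 1 experiment only (8.82%, against 20.5%). Sh2d1a, the SAP adaptor gene, had no shared region: its region in experiment 3 had a fold of 3.90 and lay 350519 bp from another list's peak. Klrg1, an inhibitory receptor gene, had folds of 4.62, 4.74 and 5.10 in experiments 1, 2 and 3. The regions of experiments 1 and 3 at Klrg1 lay 97 bp apart.

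Shared promoter regions were present at 37.2% of all protein-coding genes and regions of 1 experiment only at 20.5%. In migration and adhesion, 16 of 24 genes (66.7%) had a shared one, and Ccr7, a chemokine receptor gene of lymph node homing, had regions of 1 experiment only (4.17%). In cell cycle and survival, 27 of 30 genes had a shared one, and 2 (6.67%) had regions of 1 experiment only. Cdk2, the cyclin-dependent kinase gene, and Top2a, the topoisomerase gene, had no shared region, and experiment 3 gave their regions with folds of 4.14 at Cdk2 and 4.204 and 4.504 at Top2a. Among 30 cytosolic ribosomal protein genes, 23 (76.7%) had a shared one, and 4 (13.3%), among them Rpl18, Rps14 and Rps23, had regions of 1 experiment only. At Rps23, the regions of experiments 1 and 2 had folds of 3.04 and 4.33 and lay 23 bp apart.

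In the 5 lists of genes typical of other cells, 36.8% to 66.7% of genes had a promoter region of 1 experiment, against 40.5% of all protein-coding genes, and 13.3% to 35.3% had a shared one, against 37.2%. Of 15 B cell genes, 2 had a shared one and 6 had one of 1 experiment. Cd79a and Cd79b, of the B cell receptor, and Ebf1, a B cell factor gene, had no shared region, with folds of 3.88 to 4.97. Of 17 myeloid genes, 6 had a shared one and 9 (52.9%) one of 1 experiment. Lyz2, Mpo, Elane, Cd14, Fcgr1 and Csf3r had no shared region, with folds of 3.03 to 4.74. Of 19 T cell genes, 6 had a shared one and 7 (36.8%) one of 1 experiment. Cd4 had a region in experiment 2 with a fold of 3.88, and Cd6 had 4 regions in experiments 1 and 2 with folds of 3.45 to 5.33.

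Of 18 mesoderm and endoderm genes, the embryonic setting in which Eomes is also known, 5 had a shared promoter region and 12 (66.7%) had one of 1 experiment. Foxa2, an endoderm factor gene, had no shared region but a region in each experiment, with folds of 3.18, 3.88 and 3.30. Mesp1, Lhx1, Gata4 and Gata6 had no shared region either, with folds of 3.29 to 4.14. Of 20 liver and neuronal genes, 3 (15%) had a shared one and 10 (50%) had one of 1 experiment. Serpina1a, Gfap, Map2, Gad1 and Gad2 had no shared region, with folds of 3.00 to 4.31.

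Over the 13 lists, 156 of 303 genes had 310 regions of 1 experiment, with a median pileup of 12 and a median fold of 3.88. Of all protein-coding genes, 40.5% had such a region. In all, 32 of the 303 list genes had such a region and no shared one, beside 3705 (16.9%) of all 21896 protein-coding genes. Of the 32, 23 had it in 1 experiment, 7 in 2 and 2, Jak3 and Foxa2, in all 3. The median fold ranged from 3.66 for mesoderm and endoderm genes to 4.56 for NK receptor genes, each over 16 regions. These medians pool experiments whose own medians over all such regions differ (3.91, 4.31 and 3.86). Their order is therefore not read as a difference in binding.

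**Figure D4:**
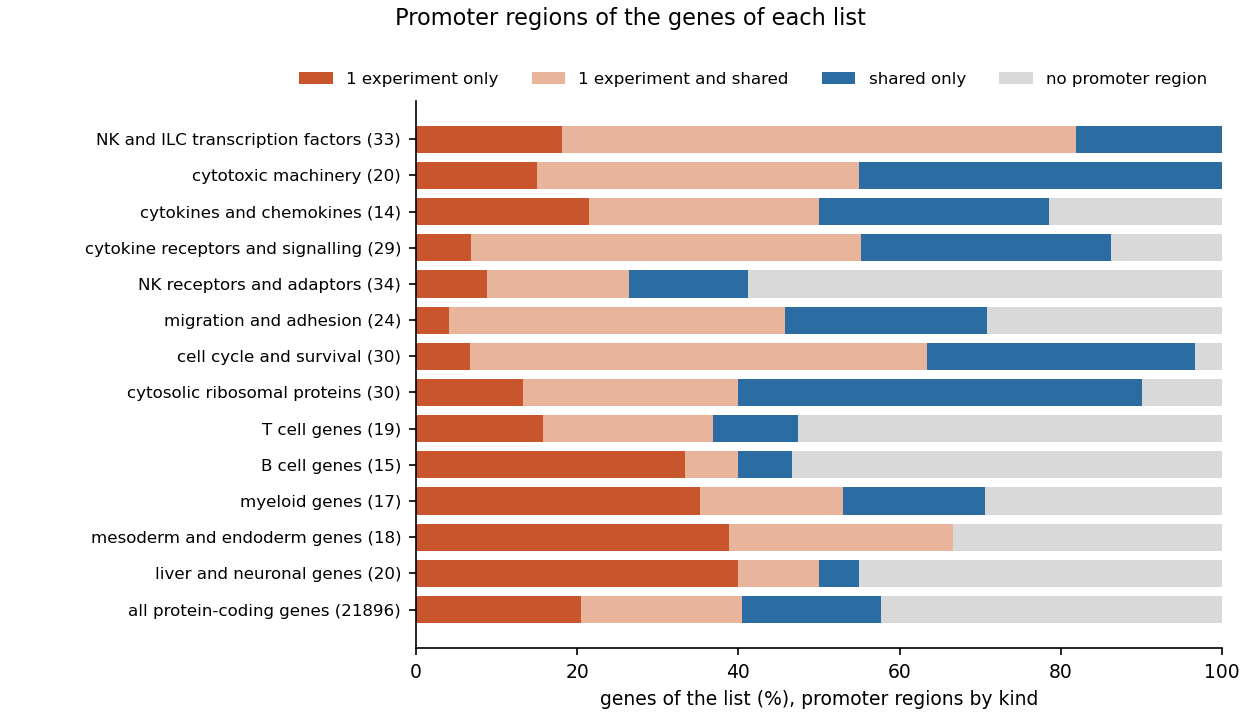
Share of the genes of each list (%) with promoter regions of 1 experiment only, of both kinds, shared only, or none, with the number of genes in parentheses. The share with regions of 1 experiment only is 4.17% (1 gene) for migration and adhesion, the lowest, and 8 of 20 genes for the liver and neuronal list, the highest, against 20.5% for all protein-coding genes.

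Genes other than protein-coding ones took a larger share of these regions than of shared promoter regions, given here without a test. Long noncoding RNA genes took 4.61% of them and 2.93% of shared promoter regions. MicroRNA genes took 1.61% and 0.748%, small nucleolar or nuclear RNA genes 1.44% and 0.353%, and pseudogenes 2.65% and 1.03%. Counted by gene, these kinds made up 25.5%, 2.46%, 4.69% and 20.2% of the RefSeq gene table. Their shares of both kinds of region lay below that. Of 1498 sensory receptor genes, which NK cells are not known to use, 46 (3.07%) had a promoter region of 1 experiment and 1 (0.0668%) had a shared one. On chromosome X, 11.4% of protein-coding genes had a promoter region of 1 experiment and 9.83% a shared one, against 42.4% and 39.0% on the autosomes.

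Base composition was compared in windows of 201 bp around the summit. Such windows could be read in full for 114, 156 and 370 regions of 1 experiment and for 1488, 1596 and 1824 shared promoter regions of those experiments, the ones inside the RefSeq promoter table. These are 2.14% to 4.19% of the regions of 1 experiment, all next to a start. GC content averaged 62.5%, 64.4% and 63.6%, against 65.9%, 66.3% and 65.9% in shared promoter regions. The difference was -2.54 ± 0.77 percentage points (SD, n = 3), lower in every experiment (exact sign-flip permutation test, two-sided, p = 0.25, the smallest possible). It was -1.69 points without experiment 2 and -1.34 without experiment 3, with regions merged anew from the remaining lists.

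CpG dinucleotides were lower in number in the same windows. A window held 12.98, 14.6 and 15.2 on average, against 18.6, 19.2 and 18.7 in shared promoter regions. The difference was -4.55 ± 1.07 (SD, n = 3; exact sign-flip permutation test, p = 0.25), lower in every experiment. It was -3.04 without experiment 2, -2.66 without experiment 3 and -2.28 in windows of 50 bases either side, which are shorter. The T-box core letters were in 9.65%, 11.5% and 14.1% of windows, against 14.1%, 14.5% and 13.7%. That difference, -2.33 ± 2.49 points (SD, n = 3), was smaller than its own spread and was positive in 1 of 3 experiments (exact sign-flip permutation test, p = 0.5).

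**Figure D5:**
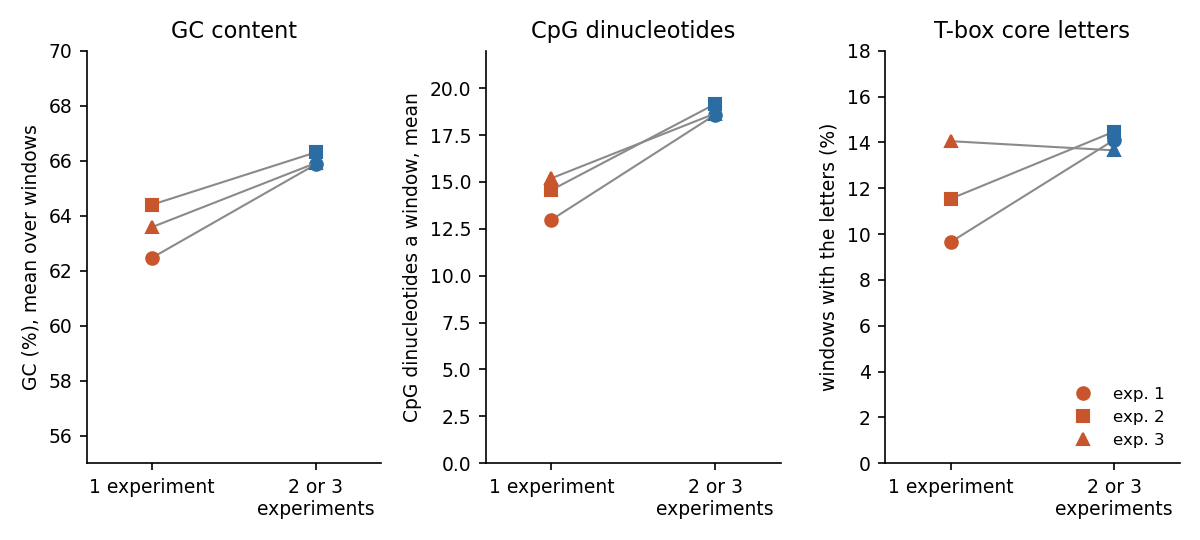
GC content (%; the axis starts at 55), CpG dinucleotides a window and share of windows with the T-box core letters (%), for regions of 1 experiment (left) and of 2 or 3 experiments (right), with a line joining the values of each experiment. GC and CpG are lower on the left in all 3 experiments, and the T-box letters are lower in experiments 1 and 2 and higher in experiment 3.

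The same order of GC and CpG held over whole promoters. Of 32815 RefSeq promoters of 300 bases, 2962 (9.03%) overlapped regions of 1 experiment only, 7923 (24.1%) overlapped a shared region and 21930 (66.8%) overlapped none. Median GC content was 59.3% in those with a region of 1 experiment only, 63.3% in those with a shared region and 48.7% in those with none. At least 10 CpG dinucleotides were present in 74.0%, 93.0% and 21.4% of them. Promoters of regions of 1 experiment thus lay between the other kinds, nearer to the shared ones.

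Letters of other factors were searched on both strands. The ETS core CCGGAA was in 20.9% of promoters with a region of 1 experiment only, 34.8% of those with a shared region and 14.9% of all promoters. The GC box GGGCGG, read by Sp and Kruppel-like factors, was in 57.4%, 71.4% and 35.6%. The T-box core GGTGTG was in 19.7%, 17.5% and 19.1%, and CCAAT was in 36.9%, 36.9% and 37.4%. The RUNX letters TGTGGTT were in 3.68%, 3.83% and 5.27%, and the AP-1 letters TGANTCA in 5.14%, 4.24% and 7.82%. The YY1 letters AAGATGGCG were in 2.46%, 3.48% and 1.396%, and the NRF1 letters GCGCATGC, which were searched in a shortened form, in 5.54%, 5.74% and 2.71%. The longer T-box letters AGGTGTGA, which contain the core, were in 1.35%, 0.858% and 1.27%. For the core, regions of 1 experiment were thus higher than shared ones over whole promoters but lower on average in the 201 bp windows. A match describes letters and not a bound site.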

How the data were processed

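Eomes IP and input libraries of 3 experiments were used through 3 peak lists, 1 per experiment. The submitters' processing notes name mm10, Novoalign and ChIPseeker; the peak caller and versions were not given in the sources used here. Per the file headers, the deposited values of each peak are a pileup (a signal), a fold enrichment (a ratio), a −log10 q-value and a distance to a start. No read counts were used. Sub-peak rows were collapsed to intervals, and merging was checked against bedtools 2.31.1, which gave the same 84399 regions, and on simulated data. Python 3.11.15 with pandas 2.3.3 and scipy 1.17.1 was used. Genes were matched by symbol to RefSeq (GRCm38.p6), and 93.2% of the regions matched.

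Shares per list were compared by exact sign-flip permutation over the 3 experiments. The 2 values of a list are paired because they come from the same experiment. With no genome given, windows were read only from RefSeq promoter entries of 300 bases (250 before to 50 after a start). The genes named are, per list, the 4 highest-scoring regions of each kind of gene, leaving out symbols that begin with Gm and a digit, Mir or Snor or end in Rik, plus genes of the 13 lists (303 genes) with no shared region. Members, lists and tests were chosen with earlier results of these data known. Alternatives covered merging, overlap, annotation choice, promoter reach, score, window, chromosomes, gene class and leaving out each experiment. Some genes that the naming rule covers are not reported here.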

Additional observations from a re-analysis of the deposited data

How the results depend on the processing

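No mean difference changed sign under the alternatives run, but single experiments did. With protein-coding genes only, a shared promoter region was less frequent for promoter than non-promoter regions in experiment 3 (54.1% against 56.2%). The order for the T-box core also differed between summit windows and whole promoters. The share of promoter regions of 1 experiment whose gene has a shared promoter region (47.6%) moved to 40.8% with intervals up to 500 bp apart merged, 47.0% with sharing only at 50% of the shorter interval, 42.1% with promoters within 1 kb, 44.9% with a score of at least 2 and 54.1% with protein-coding genes only. Leaving out each experiment gave 33.3% to 39.9%, where fewer lists leave fewer shared regions by construction. By gene, the 49.3% moved to 44.3%, 48.2%, 45.6% and 46.2% under the first 4 of these and to 33.6% to 41.0% without an experiment. The number of regions was 12140 within 1 kb. Beyond the construction of the leave-outs, the cause of these changes was not tested. The GC difference ranged from -3.77 to -1.34 points, the CpG difference from -6.08 to -2.28 and the T-box difference from -3.24 to -0.44. Without pairing of the values of a list (no replicate block), the exact permutation p was 0.7 for any shared region (-1.33 points), 0.1 for a shared promoter region (9.28), 0.2 for T-box letters (-2.33), 0.1 for GC (-2.54) and 0.1 for CpG (-4.55); 0.1 is the smallest that 3 against 3 allow. With 3 experiments neither exact permutation test could reach 0.05. For the gene shares, pooling the shared regions also makes the values of the lists depend on each other. Depth per library was not given, so binding below the smallest pileup could not be seen. The alternative without peaks of high background was added after seeing the data, as were the results by gene and on shared promoter regions against non-promoter regions.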
